A study of Rattus norvegicus with 12 samples.

Results

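7 genes that stand for inflammatory signalling were examined in RNA-seq gene counts of 2 rat kidney cell lines: the chemokines Ccl2 and Cxcl1, the cytokines Il6 and Il1b, the NF-kB inhibitor Nfkbia, and the adhesion molecules Icam1 and Vcam1. They were chosen by Ensembl identifier, and all 7 were found among the 21698 genes of the deposited table. The identifiers were ENSRNOG00000007159 (Ccl2), ENSRNOG00000002802 (Cxcl1), ENSRNOG00000010278 (Il6), ENSRNOG00000004649 (Il1b), ENSRNOG00000007390 (Nfkbia), ENSRNOG00000020679 (Icam1) and ENSRNOG00000014333 (Vcam1). The series holds 12 libraries, 3 in each of 4 groups. NRK-52E, an epithelial line that serves as a tubule model, had received vehicle or 40 µM cisplatin, a DNA-crosslinking platinum compound. NRK-49F, a rat kidney fibroblast line, had been grown for 24 h in medium that NRK-52E had conditioned, after 40 µM cisplatin (here cisplatin medium) or without it (untreated medium). DMEM with 5% FBS was the medium of both lines, and the epithelial cells were dosed at 50% confluence. For NRK-52E the labels give 6 h of drug followed by 24 h in fresh medium, whereas the design text gives 24 h of treatment. Each group is a single established line, and the labels name no separate cultures within a group, so p-values reflect only how far these libraries vary, and that variation may be technical.

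NF-kB is a family of transcription factors held inactive in the cytoplasm by inhibitor proteins, of which IkB-alpha, the product of Nfkbia, is the classical one. When cytokines, microbial products or some forms of DNA damage activate the IkB kinases, the inhibitor is degraded, NF-kB enters the nucleus, and it induces chemokines, cytokines, adhesion molecules and Nfkbia itself, which then shuts the pathway off again. In the injured kidney, tubular cells and interstitial fibroblasts are both known sources of such chemokines, which recruit monocytes and neutrophils.

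Promoters are shown because these genes are textbook NF-kB targets and several of them fell in NRK-49F. RefSeq promoter windows (build GRCr8, the 250 bases before the start used in that table) were found for 6 of the 7 genes, and Ccl2 was not among them. The NF-kB consensus, a motif of 10 letters searched on both strands, matched in Cxcl1, Il6, Nfkbia and Vcam1, where 3.54% of all 33469 windows held a match. A shorter motif, GGANTTTCC on both strands, which overlaps the consensus, matched in Cxcl1, Il6, Nfkbia and Icam1, against 1.08% of all windows. Both motifs were chosen after the sequences of the 6 windows had been read and 12 spellings of the site had been tried, which matched in 0 to 5 of the 6, so the matches are a description and support nothing. For Il1b neither was found in this window. The sequences below are given 5′ to 3′ on the gene's strand with matches in capitals. They cover chr14:17479322-17479571 (minus strand) for Cxcl1, chr4:5894576-5894825 (minus) for Il6 and chr2:206742784-206743033 (minus) for Vcam1, each the whole window. Stretches of 30 bases are given for Nfkbia at chr6:78597084-78597113 (minus) and Icam1 at chr8:27829616-27829645 (plus), whose windows run into the annotated gene span (the Nfkbia window held 1 more match to the shorter motif, not shown). A match describes the letters only.
Cxcl1: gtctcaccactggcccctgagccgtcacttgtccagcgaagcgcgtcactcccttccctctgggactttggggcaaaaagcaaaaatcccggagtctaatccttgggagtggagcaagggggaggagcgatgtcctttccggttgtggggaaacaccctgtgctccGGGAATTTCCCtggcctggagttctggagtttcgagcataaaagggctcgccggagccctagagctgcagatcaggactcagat
Il6: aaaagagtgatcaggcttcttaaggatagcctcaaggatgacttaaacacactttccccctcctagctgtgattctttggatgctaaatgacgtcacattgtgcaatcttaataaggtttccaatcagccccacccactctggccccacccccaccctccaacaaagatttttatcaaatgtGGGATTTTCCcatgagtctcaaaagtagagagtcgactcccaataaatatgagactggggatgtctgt
Vcam1: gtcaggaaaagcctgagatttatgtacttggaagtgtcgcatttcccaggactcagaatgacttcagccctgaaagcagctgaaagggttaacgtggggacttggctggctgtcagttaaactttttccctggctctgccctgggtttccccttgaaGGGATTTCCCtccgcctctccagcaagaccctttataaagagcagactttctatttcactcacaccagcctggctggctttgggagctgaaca
Nfkbia: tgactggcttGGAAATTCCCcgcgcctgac
Icam1: tacttcagtttGGAAATTCCtgggtcgcag

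Library totals ranged from 9684887 to 12549675 counts. Levels are given as CPM (counts relative to library size) with library sizes scaled by TMM factors over all 12 libraries, and a floor of 3 counts equals 0.211 to 0.357 CPM in a single library, a limit that covers counting error only. CPM is not corrected for gene length, so levels are compared between groups and not between genes. In the 16 combinations of gene and group that averaged at least 100 counts, the coefficient of variation between libraries was 0.740% to 12.7%. The sum of the 7 genes was 0.0160% to 0.0163% of all counts in vehicle NRK-52E and 0.0290% to 0.0306% in cisplatin NRK-52E. In NRK-49F it was 0.282% to 0.292% with untreated medium, and with cisplatin medium it was 0.0565% to 0.0583%.

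**Figure D1:**
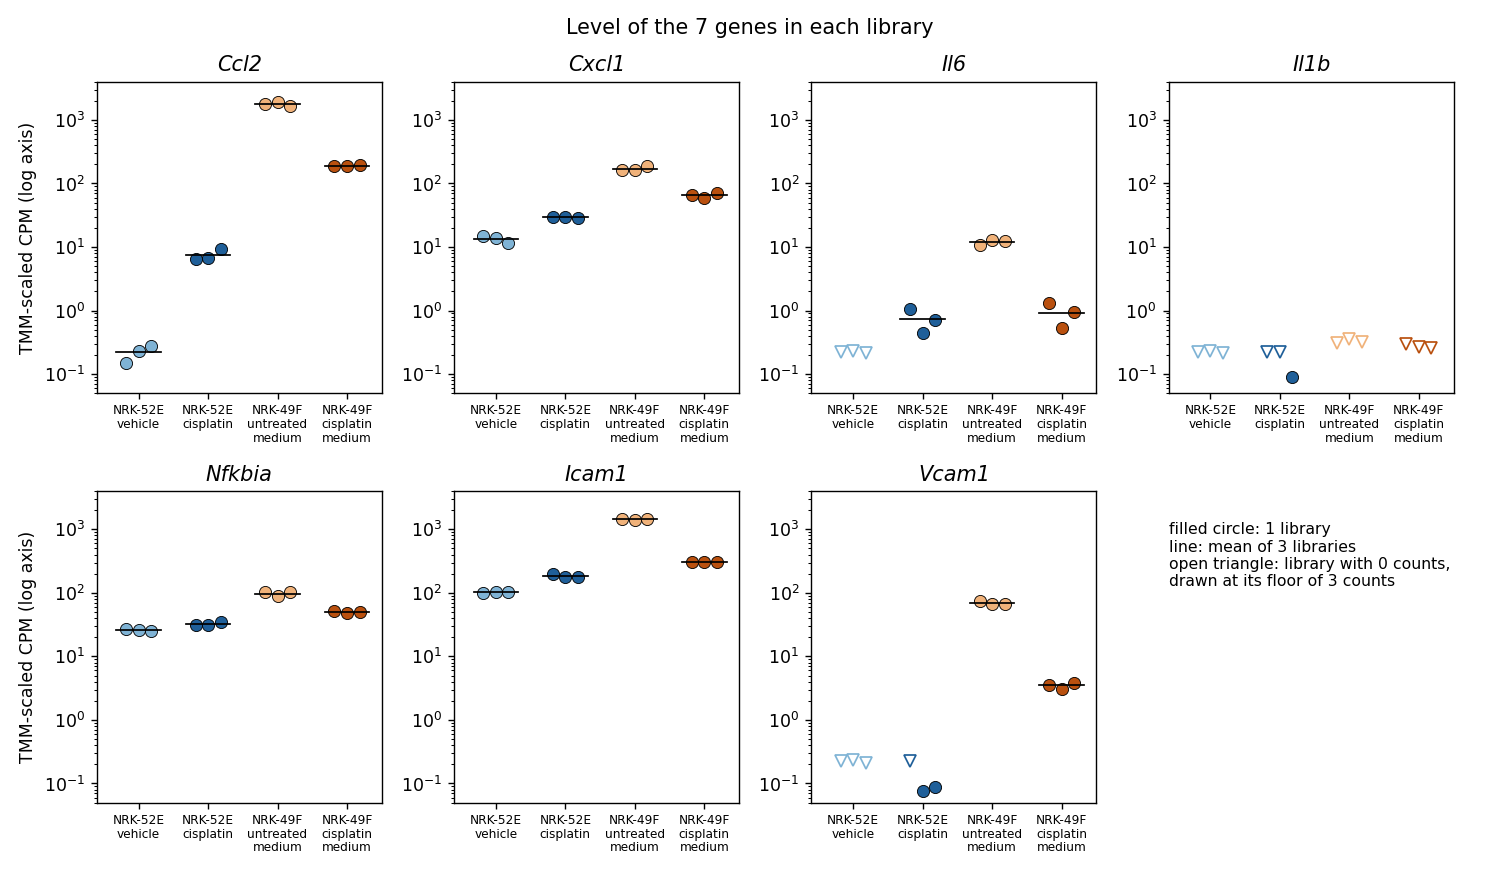
TMM-scaled CPM (log axis) of the 7 genes in each of the 12 libraries, with a line at the mean of 3 libraries and open triangles for libraries with 0 counts, drawn at a floor of 3 counts (libraries with 1 or 2 counts lie below it). Apart from Il1b, each gene was highest in NRK-49F in untreated medium, where Ccl2 averaged 1765 CPM, against 191 CPM in cisplatin medium.

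The first comparison asked how fibroblasts in cisplatin medium differed from fibroblasts in untreated medium. Both media were conditioned, and no NRK-49F group was grown in unconditioned medium. A fall with cisplatin medium and a rise with untreated medium thus cannot be told apart, and falls below are relative to untreated medium. Ccl2, Cxcl1, Nfkbia, Icam1 and Vcam1, the 5 of the 7 genes whose counts passed the filter on low counts in both media, all fell in NRK-49F in cisplatin medium. Il6 passed the filter in untreated medium alone, where it was high, so it had to differ and is described by its counts. Il1b did not pass. At a threshold of 0.05 on the Benjamini-Hochberg adjusted p, edgeR's quasi-likelihood test called 61.8% of the 11525 genes tested, and 31.0% as lower. Of the 5, 4 fell by at least 2-fold, which 3.31% of genes did, and 3 by at least 4-fold, which 0.616% did. In a test against a 1.5-fold change, all 5 passed as lower, as did 5.52% of genes. For all 5 the libraries of the 2 media did not overlap, as was true of 32.9% of genes in this direction. The median log2 fold change of the 5 was -2.23, and that of all tested genes was 0.02. In RNA from whole cultures, fewer cells that express a gene and less RNA per cell cannot be told apart.

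Ccl2 encodes MCP-1, the chemokine that attracts monocytes through CCR2. Its levels in untreated medium were 1771, 1890 and 1633 CPM, and in cisplatin medium they were 187, 191 and 194 CPM. The groups did not overlap, and the coefficient of variation was 7.30% in untreated and 1.69% in cisplatin medium. Ccl2 fell 9.24-fold (log2 fold change -3.21, standard error 0.04, edgeR adjusted p = 4.73e-35).

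Cxcl1, also known as CINC-1 in the rat, attracts neutrophils. Its levels were 162, 164 and 189 CPM in untreated medium and 64.8, 59.3 and 72.0 CPM in cisplatin medium. Every library in cisplatin medium was below every library in untreated medium. Cxcl1 fell 2.62-fold (log2 fold change -1.39, standard error 0.06, edgeR adjusted p = 1.54e-20).

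Il6, the cytokine that signals through gp130 and STAT3, had 107, 109 and 114 counts in untreated medium and 13, 6 and 11 counts in cisplatin medium. In CPM these were 10.9, 13.0 and 12.3 against 1.30, 0.537 and 0.937. The libraries of the 2 media did not overlap. The ratio of the pooled levels, 330 counts against 30, was 13.2 with an exact 95% interval of 9.05 to 19.8 that covers counting error only.

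Il1b, the inflammasome-processed cytokine, had 1 count in the 12 libraries together, in replicate 3 of cisplatin NRK-52E. A floor of 3 counts over a group of 3 libraries equals 0.0741 CPM in vehicle NRK-52E, 0.0790 CPM in cisplatin NRK-52E, 0.109 CPM in NRK-49F in untreated medium and 0.0911 CPM in cisplatin medium. Il1b was not detectable above these limits in any group and was not tested.

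Nfkbia had the smallest change of the 5. Its levels were 101, 88.2 and 101 CPM in untreated medium and 51.3, 47.8 and 49.3 CPM in cisplatin medium. The groups did not overlap, and the lowest library in untreated medium was replicate 2. Nfkbia fell 1.96-fold (log2 fold change -0.97, standard error 0.06, edgeR adjusted p = 3.7e-16).

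Icam1 and Vcam1 are immunoglobulin-family receptors for leukocyte integrins. Icam1 stood at 1450, 1386 and 1477 CPM in untreated medium and at 308, 306 and 303 CPM in cisplatin medium. The spread within each group was small beside the gap between them. Icam1 fell 4.69-fold (log2 fold change -2.23, standard error 0.04, edgeR adjusted p = 8.25e-33).

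Vcam1 had the largest fall of the 5. It was at 75.2, 67.8 and 65.7 CPM in untreated medium and at 3.60, 3.04 and 3.84 CPM in cisplatin medium, where 36, 34 and 45 counts remained. Each library in cisplatin medium was thus far below each in untreated medium. The fall was 19.8-fold (log2 fold change -4.31, standard error 0.15, edgeR adjusted p = 5.52e-28).

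Among the 11525 log2 fold changes ordered from the lowest, Vcam1 stood at rank 9, Ccl2 at 30, Icam1 at 53, Cxcl1 at 156 and Nfkbia at 409. These changes are relative to the bulk of NRK-49F genes as set by the TMM factors. With library size as the only scaling, the median of all genes moved up by 0.20 on the log2 scale and the share of calls that were higher moved from 49.9% to 75.4%, but all 5 genes still fell. Nfkbia was then at a log2 fold change of -0.77.

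**Figure D2:**
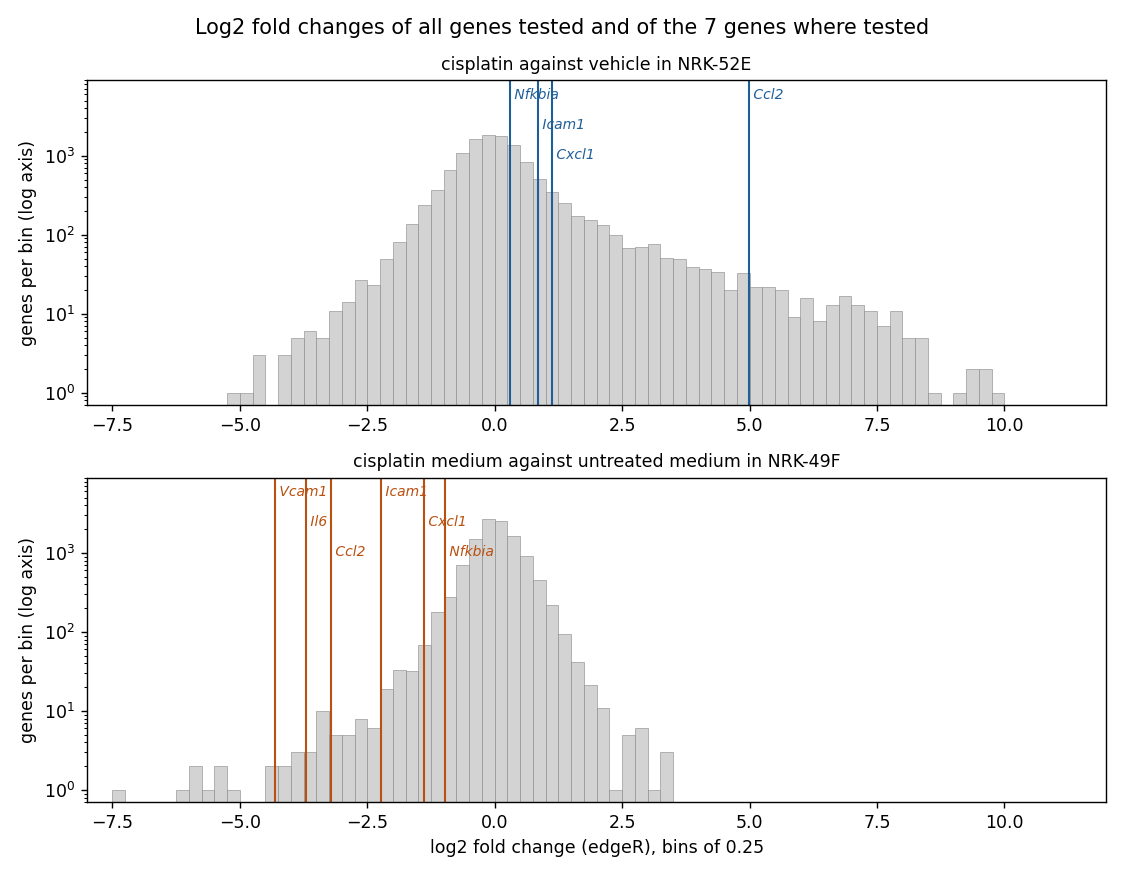
Number of genes (log axis) per bin of edgeR log2 fold change among all genes tested, for cisplatin against vehicle in NRK-52E (top) and cisplatin against untreated medium in NRK-49F (bottom), with a line for each of the 7 genes that was tested. In NRK-49F the 6 lines run from -4.31 for Vcam1 to -0.97 for Nfkbia, and in NRK-52E the 4 lines run from 0.30 for Nfkbia to 4.99 for Ccl2. Ccl2 in NRK-52E and Il6 in NRK-49F passed the filter on low counts only through the 1 group where they are high.

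The second comparison asked how cisplatin changed the same genes in the epithelial cells. Cxcl1, Nfkbia and Icam1, the 3 of the 7 genes that passed the filter on low counts with vehicle and with cisplatin alike, all rose. Ccl2 passed through the cisplatin group alone, where it was high, and is described by its counts. The edgeR test called 76.2% of 12508 genes in this comparison, and 38.7% as higher. Of the 3, Cxcl1 rose at least 2-fold, as did 14.6% of genes. The median log2 fold change of the 3 was 0.84, against 0.0078 over all tested genes. The groups did not overlap for these 3, with cisplatin higher, as for 40.0% of genes. Il6, Il1b and Vcam1 did not pass the filter in NRK-52E. From the highest of the 12508 log2 fold changes, Cxcl1 stood at rank 1637, Icam1 at 2116 and Nfkbia at 4228.

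Ccl2 had 2, 3 and 4 counts in vehicle NRK-52E (0.150, 0.232 and 0.281 CPM) and 87, 91 and 103 counts with cisplatin (6.49, 6.83 and 9.17 CPM). The groups did not overlap, and the highest level was in replicate 3 with cisplatin, the smallest library. The ratio of the pooled levels, 281 counts against 9, was 33.3 with an exact 95% counting interval of 17.3 to 73.6. Its level with cisplatin was still low beside the fibroblasts, at 7.50 ± 1.46 CPM against 191 ± 3.22 CPM in cisplatin medium (SD, n = 3 each).

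Cxcl1 was at 15.0, 13.8 and 11.6 CPM with vehicle and 29.8, 29.6 and 28.8 CPM with cisplatin. Every cisplatin library lay above every vehicle library. Cxcl1 rose 2.17-fold (log2 fold change 1.12, standard error 0.09, edgeR adjusted p = 2.45e-13).

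Il6 had 0 counts in all 3 vehicle libraries and 14, 6 and 8 counts with cisplatin. Pooled over the cisplatin libraries, Il6 was at least 9.96-fold higher than 3 counts spread over the vehicle group would be. It was not tested in the fit of NRK-52E alone.

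Nfkbia stood at 26.7, 26.1 and 25.4 CPM with vehicle and 31.2, 31.5 and 34.7 CPM with cisplatin. The groups did not overlap, but the gap between them was 4.53 CPM. The rise was 1.23-fold (log2 fold change 0.30, standard error 0.08, edgeR adjusted p = 4.94e-04). In the test against a 1.5-fold change Nfkbia did not pass, whereas Cxcl1 and Icam1 passed as higher, as did 17.9% of genes.

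Icam1 was at 100.1, 103 and 103 CPM with vehicle and 196, 180 and 179 CPM with cisplatin, where replicate 1 was the highest. It rose 1.79-fold (log2 fold change 0.84, standard error 0.05, edgeR adjusted p = 4.78e-18). Vcam1 had 0 counts with vehicle and 0, 1 and 1 counts with cisplatin, so both groups were under a floor of 3 counts and no fold is given.

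**Figure D3:**
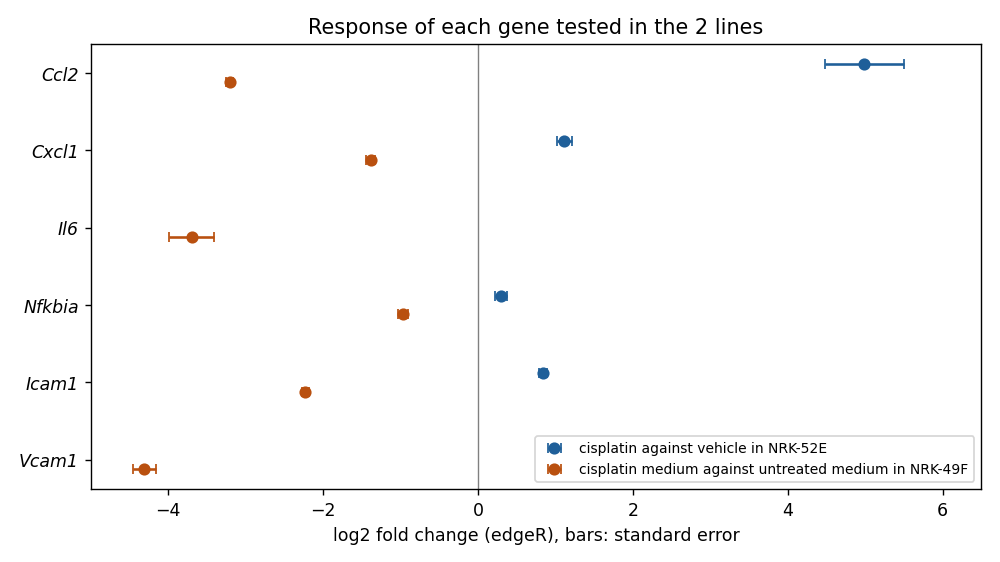
Log2 fold change with its standard error (edgeR) of each gene tested, for cisplatin against vehicle in NRK-52E (blue) and cisplatin against untreated medium in NRK-49F (orange). The 4 genes with both values, Ccl2, Cxcl1, Nfkbia and Icam1, lie above 0 in NRK-52E and below 0 in NRK-49F; Ccl2 in NRK-52E and Il6 in NRK-49F passed the filter on low counts through 1 group alone.

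Cxcl1, Nfkbia and Icam1 thus rose in the epithelial cells and fell in the fibroblasts, a combination called for 15.5% of the 10937 genes tested in both lines. The comparisons share no library. The difference between the 2 responses was tested directly in one fit of all 12 libraries. For Cxcl1, Nfkbia and Icam1 the NRK-52E response was the higher one, and edgeR called 66.5% of 13127 genes in this contrast, 33.9% as higher. With library size only, 40.9% of calls in place of 51.0% were higher in NRK-52E, and these genes remained among them. Ccl2 had a fitted log2 difference of 8.20 (standard error 0.51). Its vehicle NRK-52E group held 9 counts and did not pass the filter, so that value is a description only. On the log2 scale the difference was 3.09 for Icam1 (standard error 0.07, edgeR adjusted p = 2.15e-38). For Cxcl1 it was 2.52 (standard error 0.11, edgeR adjusted p = 2.45e-24), and for Nfkbia 1.29 (standard error 0.10, edgeR adjusted p = 2.1e-16). Il6 and Vcam1 entered this fit through NRK-49F alone, and no difference of responses is read for them, since vehicle NRK-52E held 0 counts of both and all of NRK-52E held 2 of Vcam1. NRK-52E received the drug and NRK-49F a medium, so line and agent cannot be told apart in this contrast.

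The last comparison set the lines side by side without cisplatin. Cxcl1, Nfkbia and Icam1, which passed the filter in all 4 groups, were higher in NRK-49F in untreated medium than in vehicle NRK-52E, where edgeR called 81.7% of genes and 40.9% as higher. With library size as the only scaling, the median of all genes moved by -0.49 on the log2 scale and 31.1% of calls were higher in NRK-49F in place of 50.0%, and the 3 genes were still higher. Ccl2 averaged 1765 ± 129 CPM in NRK-49F and 0.221 ± 0.0665 CPM in NRK-52E (SD, n = 3 each). The vehicle group of NRK-52E held 9 counts of Ccl2 and was too low to pass the filter, and the ratio of the pooled levels was 7923 with an exact 95% counting interval of 4174 to 17329. Icam1 averaged 1438 ± 46.6 and 102 ± 1.81 CPM (SD, n = 3 each), a log2 difference of 3.81 (edgeR adjusted p = 1.29e-48). Cxcl1 averaged 172 ± 15.5 and 13.5 ± 1.71 CPM (SD, n = 3 each), with a log2 difference of 3.68 (edgeR adjusted p = 2.44e-38). For Nfkbia, at 97.0 ± 7.59 and 26.0 ± 0.629 CPM (SD, n = 3 each), the log2 difference was 1.90 (edgeR adjusted p = 1.44e-29). Vcam1 and Il6 had 0 counts in vehicle NRK-52E. Against a floor of 3 counts over that group, Vcam1 was at least 941-fold higher and Il6 at least 162-fold higher in NRK-49F.

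Between NRK-49F in cisplatin medium and cisplatin NRK-52E the gap was narrower. The log2 difference of NRK-49F in cisplatin medium over cisplatin NRK-52E was 4.68 with a standard error of 0.10 for Ccl2, 1.15 with 0.08 for Cxcl1, 0.72 with 0.05 for Icam1 and 0.61 with 0.07 for Nfkbia. These values follow from the difference without cisplatin and the difference of the responses in the same fit and add no separate test. Il6 was at 0.924 ± 0.381 CPM in NRK-49F in cisplatin medium and 0.736 ± 0.298 CPM in cisplatin NRK-52E (SD, n = 3 each), groups that overlapped. The ratio of the pooled levels was 1.24 with an exact 95% counting interval of 0.713 to 2.15, so these 2 groups did not differ beyond their error. Vcam1 had 115 counts against 2, a ratio of 66.3 with an exact 95% counting interval of 17.9 to 554.

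Ordered by mean level, each gene but Il1b ran from NRK-49F in untreated medium through NRK-49F in cisplatin medium and cisplatin NRK-52E to vehicle NRK-52E. For Ccl2, Cxcl1, Nfkbia and Icam1 no neighbours in this order overlapped, as was the case for 5.58% of 13127 genes. Il6 overlapped between the middle groups, and Vcam1 overlapped between the NRK-52E groups, where no library held more than 1 count.

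Ratios between the genes were examined as well. Counts were set against the counts of Icam1 in the same library, a ratio in which no scaling enters, with Icam1 chosen as the denominator after its values were seen. For every 100 counts of Icam1 NRK-49F had 123 ± 12.9 counts of Ccl2 in untreated medium, and with cisplatin medium it had 62.3 ± 1.52 (SD, n = 3 each). In NRK-52E the ratio of Ccl2 to Icam1 went the other way, from 0.216 ± 0.0620 with vehicle to 4.08 ± 0.935 with cisplatin (SD, n = 3 each). Nfkbia counts per 100 of Icam1 were 6.74 ± 0.332 in untreated and 16.2 ± 0.528 in cisplatin medium, and 25.5 ± 1.03 with vehicle and 17.6 ± 1.72 with cisplatin in NRK-52E (SD, n = 3 each). Cxcl1 counts per 100 of Icam1 were 11.9 ± 0.847 and 21.4 ± 2.20 in the NRK-49F groups and 13.2 ± 1.86 and 15.9 ± 0.619 in the NRK-52E groups (SD, n = 3 each). In each of these 6 comparisons within a line the groups did not overlap, but the same held for the ratio to Icam1 of 99.5% of tested genes in the fibroblasts and 88.9% in the epithelial cells, so the separation is no result about these genes. Each gave p = 0.1 in an exact permutation test (two-sided, n = 3 against 3), which is the smallest p possible here.

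**Figure D4:**
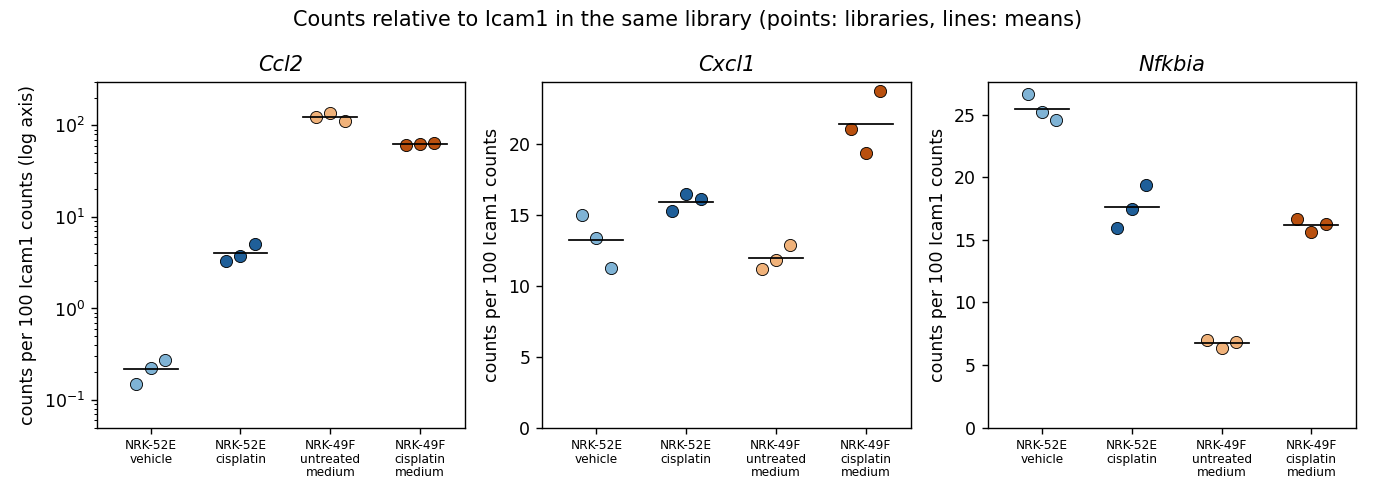
Counts of Ccl2 (log axis), Cxcl1 and Nfkbia (linear axes from 0) per 100 counts of Icam1 in the same library, with points for libraries and lines for means of 3. Relative to Icam1, Ccl2 was lower and Nfkbia higher in NRK-49F in cisplatin medium than in untreated medium, and the reverse held in NRK-52E with cisplatin against vehicle. Nfkbia itself fell 1.96-fold and Icam1 4.69-fold in NRK-49F, and they rose 1.23-fold and 1.79-fold in NRK-52E. By this ratio, groups did not overlap for 99.5% of tested genes in NRK-49F and 88.9% in NRK-52E. Vehicle NRK-52E held 9 counts of Ccl2.

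The pattern over the 12 libraries was also compared with that of the other 13126 genes, by Pearson correlation of log2 CPM. The points form 4 groups, so these values mostly restate the group means and are given as a description. Among the 7 genes, Nfkbia and Icam1 were each other's closest match (r = 0.989), as were Ccl2 and Cxcl1 (r = 0.987). Genes outside the list were closer in each case: Cxcl1 ranked 121 in closeness to Ccl2, and Icam1 ranked 25 in closeness to Nfkbia. The closest gene to Vcam1 was ENSRNOG00000050317 (r = 0.998) and that to Icam1 was ENSRNOG00000027002 (r = 0.998), for neither of which a name was at hand.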

How the data were processed

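The 12 mRNA libraries were made with a stranded TruSeq kit, per the labels' protocols, and the authors deposited unnormalized read counts of each Ensembl gene. The submitters' processing notes name Subread, featureCounts and STAR 2.7.10a. Not given in the sources used here are genome build, annotation and strand setting, so reads of overlapping, antisense or near-identical genes may have been counted together or lost. Of 21698 identifiers, 0 matched the RefSeq table (47357 genes, GRCr8). The symbols of the 7 genes came with the list of identifiers. Lists of other NF-kB pathway genes and of cell type markers, drawn up by symbol, could not be matched, so they are not analysed here and the labelled cell types were not checked against markers.

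Each line was fitted apart in edgeR 4.0.16 (R 4.3.3): filterByExpr by group (at least 10 counts, 15 in total), TMM scaling, glmQLFit and glmQLFTest on group, Benjamini-Hochberg adjustment over all genes tested and a threshold of 0.05. The difference of the responses and the line comparison were contrasts in one fit of 12 libraries (13127 genes). A standard error comes from the information matrix of the fit times the quasi-dispersion, set to at least 1 so that it cannot fall below counting error. The steps were run on simulated libraries. These all shared the composition of a control group apart from a small set of changed genes, a simpler case than these data. Every pair of replicates differed by more than sampling noise (chi-square per degree of freedom 1.71 to 4.09). The labels do not say that equal replicate numbers share anything, and these samples did not deviate together. The genes described were the 7 members in all groups, and for each with a mean of at least 1 CPM the gene with the highest r of log2 CPM (prior count 2), 2 of which are printed. Genes, lists and tests were chosen with earlier results of these data known. Alternatives were library size only, DESeq2 1.42.0, other filters, a replicate block, each library left out, a test against a 1.5-fold change and all 12 libraries in one fit. Plots were made in Python 3.11.15 (matplotlib 3.10.9).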

Additional observations from a re-analysis of the deposited data

Results flagged for a closer look

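The responses to cisplatin in NRK-52E and to cisplatin medium in NRK-49F passed for 6 genes the direct test of a difference in one edgeR fit. They are listed again for that reason, but 66.5% of the 13127 genes tested also passed, 33.9% as higher. On the log2 scale the response was higher in NRK-52E by 2.52 for Cxcl1, 1.29 for Nfkbia and 3.09 for Icam1. Ccl2 had a fitted value of 8.20, but its vehicle NRK-52E group held 9 counts and did not pass the filter, so that value is a description only. Il6 and Vcam1 entered that fit through NRK-49F alone. Their fitted values of 9.82 and 6.87 depend on the prior count, since vehicle NRK-52E libraries held 0 counts of both. In the same fit Vcam1 had no measurable response in NRK-52E (edgeR adjusted p = 0.118). Il6 was called higher there with cisplatin (edgeR adjusted p = 9.52e-07), from 28 counts against 0. No difference of responses is read for these 2 genes. The lines received different agents, which cannot be told apart from the lines. Groups of 3 libraries are too small for a search for single deviating libraries.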

How the results depend on the processing

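Each log2 fold change of the 7 genes, where tested, was recomputed under 13 alternatives within a line and 18 for the contrasts of all libraries, 346 values in all. Included are Ccl2 in NRK-52E, Il6 in NRK-49F, and Il6 and Vcam1 in the contrasts of all libraries. These passed the filter only through the group or line where they are high, so their direction had to hold and supports nothing. In the contrasts of all libraries Ccl2 passed in every group but vehicle NRK-52E, and its values there are not read as support either. The direction held in all 346 and the side of the threshold in 345. The exception was Nfkbia in NRK-52E, whose log2 fold change of 0.30 did not pass the test against a 1.5-fold change (edgeR adjusted p = 1.0). Under that test the number of genes called was 3883 in NRK-52E, 1184 in NRK-49F, 4512 for the difference of the responses and 6709 for the line comparison, against 9536, 7123, 8724 and 10729 without it. With any 1 library left out, the numbers were 9166 to 9572, 6606 to 6799, 8444 to 8684 and 10515 to 10847. The genes of the list called stayed at 4, 6, 6 and 6, counting those that passed the filter through 1 group or line. With all libraries, 76.2%, 61.8%, 66.5% and 81.7% of all tested genes were called in the same comparisons. The numbers of the replicates pair nothing in the labels, and same-numbered samples correlated in their deviations at -0.123 to 0.014 in NRK-52E and -0.038 to -0.0050 in NRK-49F, and 1 of the 6 control samples correlated best with its own number. With a replicate block, 9382, 7020, 8577 and 10653 genes were called, and 4, 6, 6 and 6 of the list, counted in the same way. With library size only, the split of calls in NRK-49F was 5918 higher and 1926 lower, that of the difference 3602 and 5196, and that of the line comparison 3481 and 7699. Depth limits Il1b in every group and Il6 and Vcam1 in NRK-52E.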
